A study of Bos taurus with 15 samples.

Results

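Oocytes taken from dominant follicles (DF) 24 h before ovulation, 6 in number and labelled T1.1 to T1.6, were ordered by their transcripts for the respiratory chain, and the 3 highest were described against the 3 lowest. They belong to 15 DF oocytes of crossbred nulliparous beef heifers, each from a different animal, with 4 collected 19-23 h after oestrus detection (T2) and 5 collected 2 h before ovulation (T3). Oestrus was synchronised with a GnRH analogue, a progesterone-releasing device and a prostaglandin analogue, and no follicle was stimulated with FSH. The T1 heifers were slaughtered before the second GnRH dose, which a subgroup of the later animals received to ensure an LH surge. Each oocyte was denuded of cumulus cells and sequenced by Smart-seq2 from polyadenylated mRNA. The oocytes came from 2 earlier animal trials, and the trial of each oocyte is not given in the sources used here, so trial and respiratory level cannot be told apart.

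For each T1 oocyte, counts were divided by the total of the library and scaled to the same total in every library (CPM), and log2(CPM + 1) was averaged over 13 subunit genes. T1.2 scored 10.45, T1.4 scored 10.03 and T1.5 scored 9.74, and these are called high. T1.3 scored 7.99, T1.6 scored 7.75 and T1.1 scored 7.61, and these are called low. The lowest high oocyte and the highest low oocyte were 1.75 apart on the log2 scale, a wider gap than that between any neighbours within either group. The mean was 10.07 ± 0.36 in the high and 7.78 ± 0.19 in the low oocytes (SD, n = 3 each), a difference of 2.29. The groups were thus chosen by their measured 13-gene score, so every contrast of high and low at T1 is a description without a test. The division was the same in 19 of 19 other ways of scaling, thinning or leaving out a gene from the score. T1.4 is not among the oocytes that the study kept after quality control, and counts without it are given for all genes and for the gene lists that it moves.

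**Figure D1:**
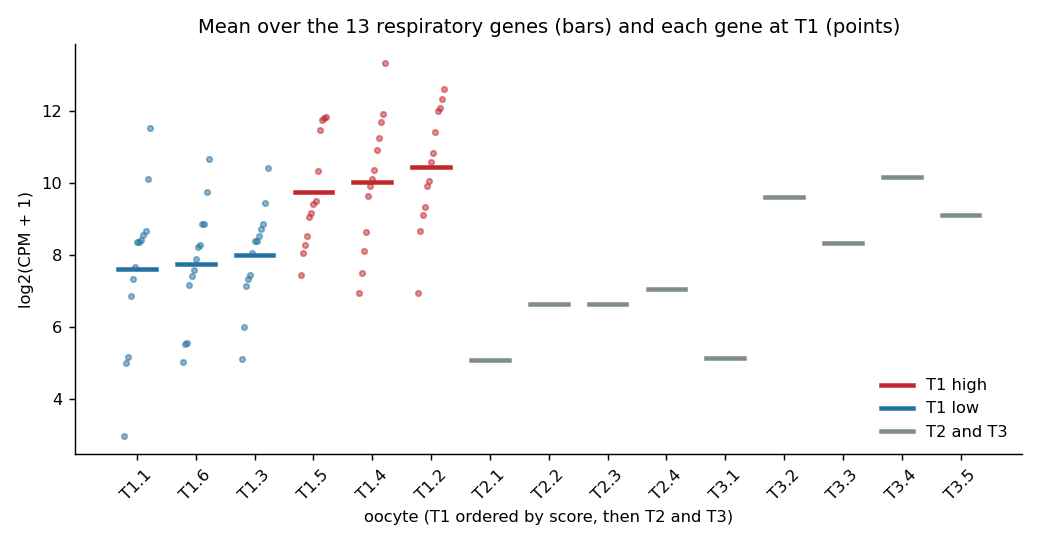
The vertical axis is log2(CPM + 1) and the horizontal axis lists the 15 oocytes. Bars are the mean over the 13 respiratory genes in 1 oocyte, and points are the single genes of the T1 oocytes. The 3 high T1 oocytes have bars between 9.74 and 10.45, the 3 low ones between 7.61 and 7.99, and the 4 T2 oocytes between 5.08 and 7.06.

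Oxidative phosphorylation is carried out in the inner mitochondrial membrane, where complexes I to IV pass electrons to oxygen and pump protons, and ATP synthase (complex V) uses the proton gradient to make ATP. Nuclear genes encode most subunits, and many of them are small accessory proteins translated on cytosolic ribosomes. The growing oocyte accumulates mitochondria and stores mRNA that it later translates while its own transcription is low. The 13 genes of the score cover complex I (NDUFB8, NDUFB6 and NDUFA7), complex III (UQCR11, UQCRQ and UQCRH), complex IV (COX7A2, COX6A1, COX6C and COX7A1) and ATP synthase (ATP5MF, ATP5PO and ATP5F1E).

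Since they made the division, the 13 genes show only how evenly it runs through the complexes. NDUFA7 of complex I had 548, 398 and 371 CPM in T1.2, T1.4 and T1.5, against 31.1, 63.5 and 46.1 CPM in T1.1, T1.3 and T1.6. UQCRQ of complex III had 4304, 3298 and 3590 CPM in the same high oocytes and 378, 692 and 467 CPM in the low ones. COX6C of complex IV had 6292, 10355 and 3668 CPM against 2931, 1373 and 1610 CPM. In all 13 genes every high oocyte lay above every low one, the closest being COX7A1, with 179 CPM in T1.4 and 161 CPM in T1.3. The difference in mean log2(CPM + 1) ran from 1.43 for ATP5MF to 3.24 for NDUFA7, with a median of 2.06.

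The libraries differed in how their counts were spread over genes. Totals were 3256291, 2874041 and 4894970 counts in T1.2, T1.4 and T1.5, and 3472460, 2646223 and 824854 in T1.1, T1.3 and T1.6, so the groups overlapped in depth. They overlapped also in the number of genes with a count above 1, which lay between 7071 and 10752 in the high and between 9191 and 10898 in the low oocytes. The 20 most abundant genes, however, took 22.4%, 20.5% and 17.3% of the counts in T1.2, T1.4 and T1.5, and 11.0%, 7.23% and 8.26% in T1.1, T1.3 and T1.6. In the high oocytes 259 ± 89.3 genes held 50% of the counts, and in the low oocytes 605 ± 149 genes (SD, n = 3 each). A CPM is a share, so a few abundant transcripts lower the CPM of all others. The part of this in the differences at T1 was not tested beyond the other scalings given here. Because Smart-seq2 has no molecular identifiers, count totals speak of counting error only.

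Outside the 13 genes, 6907 of the 21218 genes in the table had a mean of at least 10 CPM over the 6 oocytes and were compared. In 466 of them (6.75%) all 3 high oocytes lay above all 3 low ones with a difference of at least 1.5 in mean log2(CPM + 1), and in 1065 (15.4%) all 3 lay below with a difference of at least that size. These shares describe the division and nothing is read from them. The median difference over all 6907 genes was -0.78, so a typical gene took a smaller share of the counts in the high oocytes. With the TMM, RLE or upper-quartile factors, that median lay between -0.37 and -0.32 and the numbers were 648 higher and 650 lower, 651 and 651, or 675 and 619. Accordingly, 30.4% of the genes apart were higher by CPM, and between 49.9% and 52.2% with these factors. Under all 3 factors 465 of the 466 higher genes and 635 of the 1065 lower genes kept their call. Without T1.4 the numbers were 621 (8.81%) and 1244 (17.7%) of 7045 genes by CPM, and without T1.5 they were 494 and 1701.

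The higher genes were few and abundant. Together they took 42.2%, 36.7% and 33.6% of the counts in T1.2, T1.4 and T1.5, against 6.20%, 8.51% and 7.76% in T1.1, T1.3 and T1.6. The lower genes took 4.18% on average in the high oocytes, at most 5.16% (T1.5), and 17.5% in the low oocytes, at least 16.8% (T1.3). The median of their mean level over the 6 oocytes was 121 CPM for the higher and 50.2 CPM for the lower genes, beside 49.0 CPM for all genes compared. Of the lower genes, 416 had 0 counts in at least 1 high oocyte, 311 of them in T1.4, and 25 had 0 counts in all 3. Their log2 differences depend on the pseudocount and are no bounds. Symbols were at hand for 1141 of the 6907 genes. All of them are genes that the study listed as different between DF and >120 μm oocytes. That comparison used 5 of these 6 oocytes, and the T2 and T3 oocytes that the study kept. Of these named genes, 126 (11.0%) were higher and 177 (15.5%) lower, and the lists that follow hold named genes only.

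**Figure D2:**
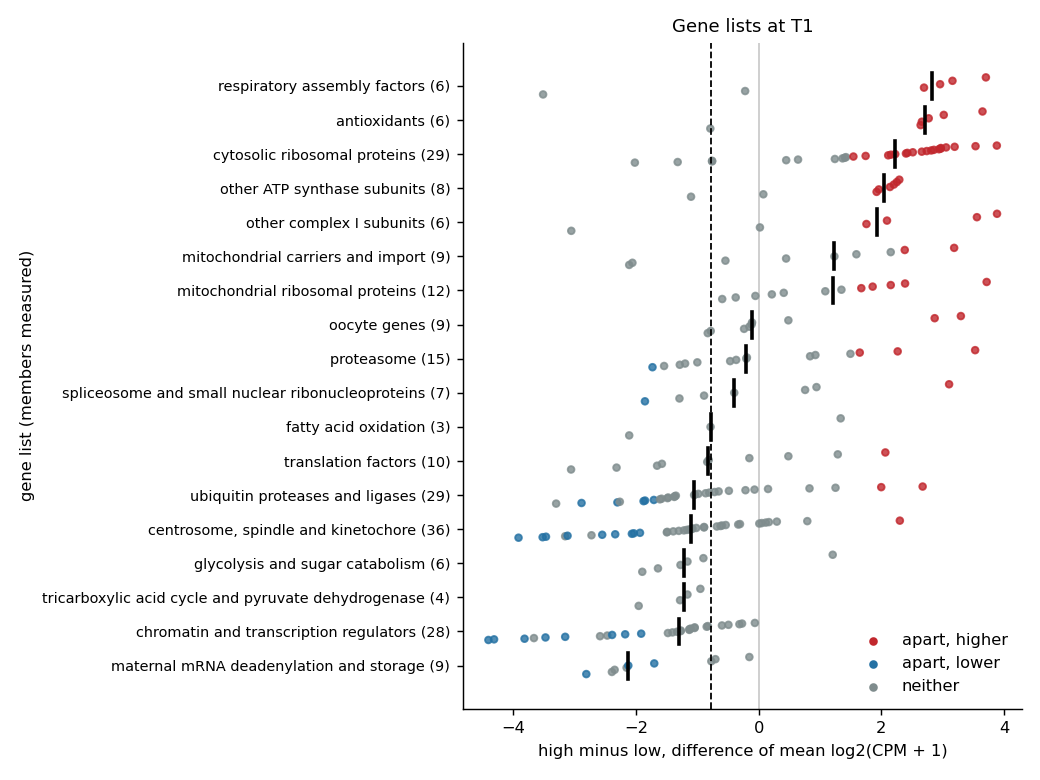
The horizontal axis is the difference in mean log2(CPM + 1), high minus low T1 oocytes, and each row is a gene list with its number of measured members. Points are genes, coloured red or blue where the 3 high and 3 low oocytes did not overlap and differed by at least 1.5, black bars are list medians, and the dashed line is the median of all 6907 genes, -0.78. Respiratory, antioxidant and ribosomal protein genes lie mostly right of 0, and chromatin and deadenylation genes left of it.

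Other accessory subunits of the respiratory chain were higher in the high oocytes, while the catalytic subunits that could be measured were not. Of 6 further complex I genes measured, 4 were higher, among them NDUFB2 with 1354, 737 and 821 CPM in T1.2, T1.4 and T1.5 and 33.7, 138 and 52.1 CPM in T1.1, T1.3 and T1.6. NDUFA11, a membrane arm subunit, had 1357, 1411 and 1424 CPM in the high and 34.0, 332 and 143 CPM in the low oocytes, the 3 high values lying within a narrow range. The same order held for NDUFA1, with 1862, 3252 and 2190 CPM against 880, 660 and 590 CPM. The core subunit NDUFV1, which carries the NADH site of the complex, overlapped between the groups, with a difference of 0.02. The median over the 6 genes was 1.92.

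Of 8 further ATP synthase genes, 6 were higher, with a median difference of 2.05 over the 8. ATP5PD, a subunit of the peripheral stalk, had 1905, 3212 and 2395 CPM in the high and 900, 473 and 630 CPM in the low oocytes. ATP5IF1, the inhibitor that stops the enzyme from running backwards, had 2687, 2508 and 1849 CPM against 295, 952 and 516 CPM. The catalytic beta subunit ATP5F1B lay lower in every high oocyte, at 52.8, 49.1 and 47.0 CPM against 64.5, 108 and 177 CPM, a difference of -1.10. Of the 6907 genes compared, 1631 lay lower in every high oocyte, and the median difference over all was -0.78. For complex IV, NDUFA4 was higher (4379, 5266 and 3928 CPM against 1649, 980 and 1449 CPM) and NDUFA4L2, its paralog, overlapped. The delta subunit of the central stalk, ATP5F1D, overlapped too, with a difference of 0.08. Genes encoded by the mitochondrial genome and those of complex II could not be named in the table. Short and long transcripts could not be compared either, because no annotation of the genome build of the files was used here.

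Most of the assembly factors of complex IV were higher as well. Among 6 assembly factors measured, COA8, COX14, PET100 and COX17, which serve complex IV, were higher, and the median over the 6 was 2.83. COX19, another factor of complex IV, overlapped with a difference of -0.22. COX17, a copper chaperone, had 693, 443 and 363 CPM in the high and 110, 62.0 and 58.2 CPM in the low oocytes. BCS1L, which inserts the iron-sulphur protein into complex III, overlapped between the groups with a difference of -3.51. Without T1.4, 4 of 5 assembly factors measured were higher and 1, BCS1L, was lower, while the counts for complex I and ATP synthase stayed at 4 of 6 and 6 of 8. Of 9 carrier and import genes, 2 were higher, ROMO1 of the inner membrane (1591, 1204 and 1384 CPM against 88.7, 292 and 133 CPM) and DNAJC15, a cochaperone of import. TIMM10, an import chaperone of the intermembrane space, had 640, 227 and 570 CPM against 22.8, 274 and 144 CPM and overlapped. The median of the carrier and import list was 1.23, but -0.36 with no minimum level and 2.27 at a minimum of 50 CPM, so its direction depends on which genes are counted. Without T1.4, 3 of 9 were higher.

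Among the pathways that feed electrons to the chain, none of 4 genes of the tricarboxylic acid cycle, of 3 of fatty acid oxidation or of 6 of glycolysis and sugar catabolism was apart between the groups. IDH3B, a subunit of mitochondrial isocitrate dehydrogenase, had 24.0, 22.3 and 63.9 CPM in the high and 23.6, 127 and 84.9 CPM in the low oocytes. GAPDH of glycolysis had 81.1, 3.13 and 177 CPM against 19.9, 409 and 362 CPM, so both groups held low and high values. The list medians were -1.22 for the cycle, -0.78 for fatty acid oxidation and -1.22 for glycolysis, beside -0.78 for all genes. Without T1.4 they were -0.43, 0.62 and -0.27. These transcripts were scarce, and 6 of the 17 glycolysis genes with a symbol reached the minimum of 10 CPM.

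Ribosomal protein genes formed the largest group of higher genes among the lists. Of 29 cytosolic ones 19 were higher and 0 lower, with a median difference of 2.23, and their sum took 3.06%, 2.71% and 1.86% of the counts in T1.2, T1.4 and T1.5 against 0.627%, 0.682% and 0.650% in T1.1, T1.3 and T1.6. RPL19 had 5457, 4735 and 3323 CPM in the high and 330, 528 and 315 CPM in the low oocytes, an 11.6-fold difference of the mean log2 levels. RPL28 had 541, 530 and 541 CPM against 10.9, 90.7 and 43.6 CPM. Without T1.4, 18 of the 29 were higher. The family was not uniform, however, as RPS27A, with 1955, 2334 and 1106 CPM against 1359, 860 and 1135 CPM, overlapped, and RPS3A, RPSA, RPLP0 and RPS12 had differences between -2.02 and -0.76. Ribosomal protein and respiratory subunit genes have processed pseudogenes, so the split of reads between a gene and its copies is uncertain.

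Of 12 mitochondrial ribosomal protein genes, 5 were higher, among them MRPS18C (4184, 3130 and 2085 CPM against 1608, 491 and 392 CPM) and MRPS14 (2199, 1811 and 1483 CPM against 442, 387 and 240 CPM). The median of the list was 1.22, and -0.066 without T1.1, so its direction rested on that oocyte. Of all named genes compared, 11.0% were higher and 15.5% lower. Of 10 translation factors 1 was higher, EIF1AX, which places the start codon, with 6504, 7692 and 5959 CPM against 2021, 1357 and 1483 CPM. The median of the translation list was -0.83, and 0.46 without T1.4. Of 7 spliceosome genes LSM7 was higher (580, 515 and 478 CPM against 35.1, 132 and 46.1 CPM). LSM8 was lower (140, 78.6 and 94.0 CPM against 570, 272 and 321 CPM). Both encode Sm-like proteins of the ring that binds U6 RNA. With so few genes, the counts of the translation and spliceosome lists are not set apart from the shares of all named genes.

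Antioxidant enzymes were among the most abundant higher genes. GSTM3, a glutathione S-transferase, had 50336, 32779 and 33006 CPM in T1.2, T1.4 and T1.5 and 5881, 5758 and 6650 CPM in T1.1, T1.3 and T1.6. In T1.2 it was the most abundant gene of the library, with 5.03% of the counts. PRDX1, a peroxiredoxin that reduces hydrogen peroxide, had 14499, 11318 and 8457 CPM against 684, 962 and 1069 CPM, a 12.5-fold difference. PRDX4, PARK7 and the copper chaperone ATOX1 were higher too, by 2.77, 3.02 and 2.66 on the log2 scale. The heavy chain of ferritin, FTH1, overlapped, so 5 of the 6 genes measured were higher (5 of 7 without T1.4), and the median was 2.71.

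**Figure D3:**
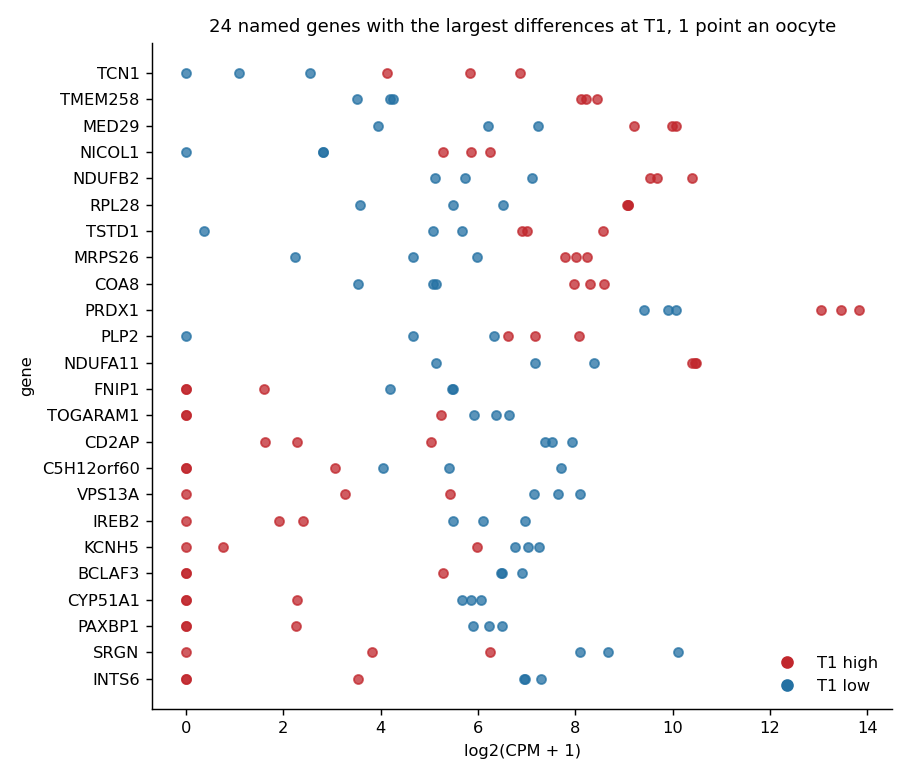
The horizontal axis is log2(CPM + 1) and the rows are the 12 named genes with the largest positive and the 12 with the largest negative difference between the groups, each point being 1 oocyte (coinciding points overlap). The 3 red points of the high oocytes lie right of the 3 blue points of the low oocytes in the upper 12 rows and left of them in the lower 12, where many lie at 0.

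The 12 named genes with the largest positive differences also held genes outside these lists. TMEM258, a subunit of the oligosaccharyltransferase that glycosylates secreted proteins, had 278, 347 and 298 CPM in the high and 10.4, 17.4 and 18.2 CPM in the low oocytes. MED29 of the Mediator complex had 1008, 586 and 1067 CPM against 14.4, 150 and 72.7 CPM. TCN1, which binds vitamin B12, had the largest difference (4.40) at a low level, 16.6, 56.0 and 115 CPM against 0, 1.13 and 4.85 CPM. NICOL1, TSTD1 and PLP2, together with MRPS26 and COA8 of the lists above, had differences between 3.63 and 3.91. In every one of the 12 the groups were apart by the rule that chose them.

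Proteasome genes were divided. POMP, which assembles the 20S core, had 4017, 5798 and 3429 CPM against 2338, 918 and 1207 CPM, and the chaperone PSMG4 and the core subunit PSMB4 were higher as well, although the difference of PSMB4 fell from 2.27 to 1.02 without T1.1. Another core subunit, PSMA2, overlapped with a difference of -1.20. The ATPase and non-ATPase subunits of the 19S cap (PSMC and PSMD genes) overlapped, apart from PSMC4, with a difference of 0.84, and PSME4, an activator, was lower by the rule (9.52, 47.3 and 36.4 CPM against 98.8, 55.2 and 122 CPM). In all, 3 of 15 genes were higher and 1 lower, with a median of -0.20. Without T1.4, 2 were higher and 1 lower and the median was 0.65.

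The lower transcripts included regulators of chromatin, of mRNA turnover and of cell division. Of all genes compared 15.4% were lower, and 635 of these 1065 kept their call under the TMM, RLE and upper-quartile factors. The members of the lists were not counted under those factors. Of 28 chromatin and transcription genes 8 were lower and 0 higher, with a median of -1.30 beside -0.78 for all genes. ATRX, a chromatin remodeller, had 587, 755 and 606 CPM in T1.2, T1.4 and T1.5 and 1853, 1046 and 1391 CPM in T1.1, T1.3 and T1.6, with no overlap and a difference of -1.11, short of the size set. NIPBL, the loader of cohesin, overlapped, since T1.4 had 793 CPM.

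Genes of mRNA turnover and storage had the lowest median of the lists with 3 or more genes, with 3 of 9 lower, 0 higher and a median of -2.12. XRN1, the exonuclease that degrades decapped mRNA, had 111, 66.5 and 1.84 CPM in the high and 314, 139 and 166 CPM in the low oocytes. Its difference was -2.81, and -1.16 without T1.5, short of the size set. PAN3 of a poly(A)-shortening complex had 20.0, 96.7 and 39.2 CPM against 245, 148 and 184 CPM, and CNOT6, a deadenylase of the CCR4-NOT complex, was lower as well, with a difference of -1.70. Its paralog CNOT6L had no overlap but a difference of only -0.77, the size of the median of all genes. Without T1.4, 4 of 10 genes were lower and the median of the list was -1.47.

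Among 36 centrosome, spindle and kinetochore genes 9 were lower and 1 higher. The lower ones included KNTC1 of the kinetochore (33.5, 167 and 60.3 CPM against 711, 719 and 932 CPM), the centriolar satellite protein PCM1 and CEP170. SMC6, a chromosome maintenance protein that the list also holds, was lower too. The higher one was SPC24, a small subunit of the NDC80 complex, with 211, 107 and 113 CPM against 7.49, 47.2 and 52.1 CPM. CENPF, the most abundant, had 1420, 1553 and 1579 CPM in the high and 2723, 3150 and 4233 CPM in the low oocytes, a difference of -1.13. The list median of -1.10 was 0.33 below that of all genes. Of 29 ubiquitin proteases and ligases 5 were lower and 2 higher, close to the 15.4% and 6.75% of all genes. Their median was -1.05, and USP34, at 267, 292 and 377 CPM against 810, 744 and 807 CPM, had no overlap. Without T1.4 the lower genes were 11 of 28 in the chromatin list, 12 of 36 in the centrosome list and 8 of 30 in the ubiquitin list, beside 17.7% of all genes.

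The 12 named genes with the largest negative differences were at or near 0 in some high oocytes. INTS6 of the Integrator complex had 0 CPM in T1.2 and T1.4 and 10.6 CPM in T1.5, against 124, 122 and 155 CPM in T1.1, T1.3 and T1.6. CYP51A1, a demethylase of cholesterol synthesis, had 0 CPM in T1.2 and T1.4 and 3.88 CPM in T1.5, against 65.7, 57.1 and 49.7 CPM. IREB2, which controls iron-dependent mRNAs, had 0, 2.78 and 4.29 CPM against 124, 67.6 and 43.6 CPM. In these 3 genes the spread was wider in the high than in the low oocytes on the log2 scale. PAXBP1, BCLAF3, KCNH5, VPS13A, CD2AP, TOGARAM1, FNIP1 and C5H12orf60 had differences between -5.45 and -4.51.

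The oocyte identity of the libraries was checked by genes that could be named. OOSP2, an oocyte-secreted protein, had between 1897 and 15523 CPM in the 6 oocytes, and KPNA7, an oocyte importin, between 220 and 646 CPM, and neither was apart between the groups. NLRP5, a maternal-effect gene, and NOBOX had counts in all 6. FIGLA, the transcription factor of the zona pellucida genes, was higher in the high oocytes, with 3056, 3512 and 2648 CPM against 71.7, 731 and 565 CPM. GTSF1, a germ cell protein of the piRNA pathway, had 5636, 4502 and 4671 CPM against 954, 478 and 666 CPM. Of 9 oocyte genes measured these 2 were higher, 0 were lower and the median was -0.11.

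Few markers of other cells could be named. Of 17 cumulus and granulosa markers, only STAR could be named, with 80.8, 130 and 201 CPM in T1.2, T1.4 and T1.5 and 93.9, 294 and 376 CPM in T1.1, T1.3 and T1.6, overlapping. Of 10 leukocyte markers SRGN and CSF1R could be named, and their sum lay between 0 and 77.4 CPM in the high and between 286 and 1103 CPM in the low oocytes. SRGN, a proteoglycan of secretory granules, had 74.6, 0 and 13.1 CPM against 1100, 273 and 407 CPM, a difference of -5.61. It made up most of the sum in all low oocytes, while in T1.5 CSF1R, at 44.7 CPM, was the larger part. None of 6 erythrocyte markers could be named. Whether other cells had a part in the differences was not tested.

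To see how the same genes behave in oocytes whose own scores did not set the division, T3 was compared with T2. The main fit used the 6 of those oocytes that the study kept. They are not independent of the division, because the 13 genes of the score are named genes. All named genes come from the study's list of genes that differed in DF oocytes, and that comparison used these 6 oocytes. These oocytes also differ in the 13-gene score. It was 9.61 and 10.16 in T3.2 and T3.4 and between 5.08 and 7.06 in the 4 T2 oocytes. The comparison thus asks which other genes go with the score between T2 and T3. The study's methods name both collections under the same day of slaughter, so the time between T2 and T3 is not known. The 20 most abundant genes took 17.3% and 16.7% of the counts in T3.2 and T3.4, and between 7.93% and 9.07% in T2. The second GnRH dose went to a subgroup of these later animals. Time, dose, trial and the spread of counts over genes therefore cannot be told apart here. The quasi-likelihood test of edgeR on 8753 genes, at an adjusted p of 0.05 and a log2 fold change of 1.5, called 504 genes higher in T3 (5.76%) and 302 lower (3.45%). Of the genes higher in the high T1 oocytes, 454 could be tested, and 279 of them (61.5%) were called higher in T3 and 0 lower, against 1 lower by its likelihood ratio test and 1 by DESeq2. Their log2 fold change was above 0 in 437 (96.3%), with a median of 2.86 beside -0.13 over all genes tested. Of the genes lower in the high T1 oocytes, 1061 could be tested, and 63 (5.94%) were called lower and 3 higher, with a median of -0.57. No p is given for these sets, since they were chosen with results of these data known. With the genes apart at T1 taken without T1.4, 309 of 593 (52.1%) of the higher ones were called higher in T3. The calls depend on the fit. With all 9 T2 and T3 oocytes, edgeR called 0 genes in either direction (617 at an unadjusted p under 0.05), with the replicate number as a block 0 (1030) and with the 5 listed T1 oocytes in the same fit 0 (1761), while its likelihood ratio test called 810 higher and 794 lower and DESeq2 called 740 and 722. The medians of the genes higher at T1 were 2.39, 2.64 and 2.89 in the fits with 0 calls, and 96.0%, 94.1% and 95.7% of these genes were above 0. An unadjusted p under 0.05 in the direction of T3 was reached by 80.0% of them in the fit of 6 oocytes, against 12.5% of all genes tested (13.8% in the other direction), and by 49.6% against 4.78% with all 9 oocytes. Leaving out 1 oocyte moved the calls of all genes to 245 higher and 57 lower without T2.3, 263 and 61 without T2.2, 340 and 101 without T2.4, 435 and 189 without T2.1, 506 and 462 without T3.4, and 975 and 1226 without T3.2. The calls among the genes higher at T1 then lay between 180 (without T2.3) and 293 (without T3.2), and among the genes lower at T1 between 19 (without T2.3) and 210 (without T3.2).

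**Figure D4:**
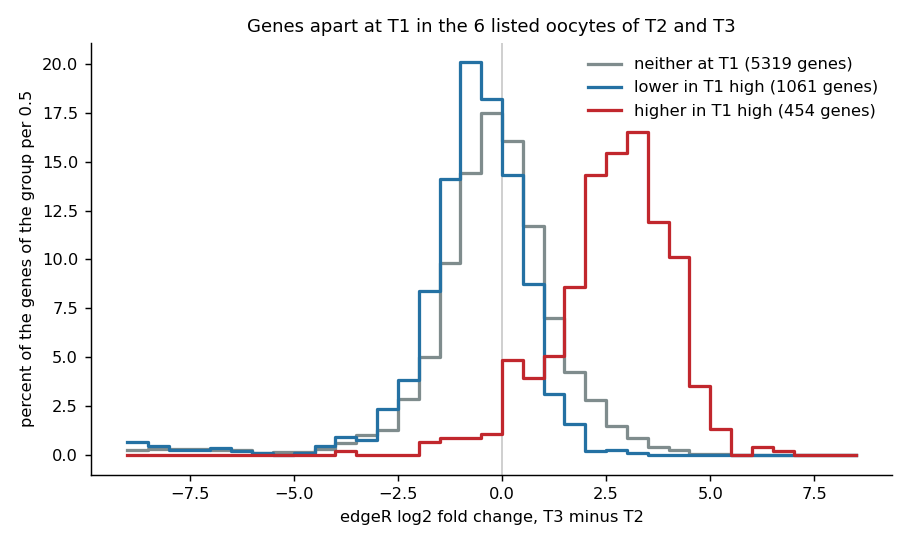
The horizontal axis is the log2 fold change of T3 over T2 by edgeR in the 6 oocytes, and the vertical axis the percent of the genes of each set per step of 0.5. The red line (454 genes higher in the high T1 oocytes, median 2.86) lies right of 0, and the blue line (1061 genes lower, median -0.57) lies near the grey line of the 5319 genes that were neither (median -0.14).

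Among the genes with a symbol that were higher at T1, those with the smallest p for a rise in T3 over T2 were ATP6V0B, a subunit of the proton pump of lysosomes, and NME2, a nucleoside diphosphate kinase. NME2 had between 44.8 and 68.4 CPM in the 4 T2 oocytes and 846 and 1215 CPM in T3.2 and T3.4, a log2 fold change of 4.42 with an adjusted p of 0.000948 by edgeR. In the 3 T3 oocytes that the study did not keep it had 0 (T3.1), 677 (T3.3) and 742 CPM (T3.5). GSTM3 had between 1379 and 3626 CPM in T2, and 38250 and 27510 CPM in T3.2 and T3.4, with a log2 fold change of 4.22 (edgeR adjusted p = 0.00127). T3.1, whose 13-gene score was 5.13, had 96.6 CPM of GSTM3, while T3.3 and T3.5 had 25441 and 36745 CPM. PRDX1 and RPL19 were called higher in T3 as well, with log2 fold changes of 3.31 and 3.66. FIGLA (2.96, edgeR adjusted p = 0.0585) missed the threshold.

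Over all genes tested, edgeR called 5.76% higher in T3 and 3.45% lower. The lists and the 13 genes of the score hold only genes from the study's comparison, which used the same 6 oocytes. No share over all named genes was taken. By list, edgeR called 25 of 29 cytosolic ribosomal protein genes, 5 of 6 antioxidant genes, 4 of 6 further complex I genes, 4 of 8 further ATP synthase genes, 3 of 6 assembly factors and 5 of 12 mitochondrial ribosomal protein genes higher in T3, and none of these lower. The likelihood ratio test called 2 of these genes for mitochondrial ribosomal proteins and 1 for complex I lower, and DESeq2 1 and 1. Of the 13 genes of the score, 12 were called higher. In the 6 oocytes the quasi-likelihood test called 0 of 27 chromatin and transcription genes and 0 of 9 genes of mRNA turnover, where 4 and 2 of them had an unadjusted p under 0.05. The likelihood ratio test called 1 higher and 1 lower in each list, and DESeq2 1 higher and 2 lower of 28 chromatin genes and 1 lower of mRNA turnover. XRN1 had a log2 fold change of -0.46. Of 36 centrosome, spindle and kinetochore genes, SPC24 and CENPS were called higher and 0 lower (2 lower at an unadjusted p under 0.05, and 1 lower by the likelihood ratio test and 0 by DESeq2), and of 29 ubiquitin genes 1 was called higher and 1 lower.

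Of the genes with a symbol that were lower at T1, NBEAL1 and TMEFF1 had the smallest p in the same direction. NBEAL1 had 6.76, 21.2 and 27.4 CPM in the high and 188, 149 and 198 CPM in the low T1 oocytes, between 126 and 158 CPM in T2, and 6.70 and 10.7 CPM in T3.2 and T3.4 (log2 fold change -3.74, edgeR adjusted p = 0.00295). TMEFF1, a membrane protein, had a log2 fold change of -2.24 (edgeR adjusted p = 0.0116). At T1 it had 39.9, 1.74 and 50.7 CPM in the high and 146, 125 and 83.7 CPM in the low oocytes. Its T1 difference was -2.69, and -1.34 without T1.4, short of the 1.5 set. MSANTD4 went the other way, lower in the high T1 oocytes with a difference of -1.54 and called higher in T3 by 1.75 (edgeR adjusted p = 0.0393). Among the genes with a symbol that were higher at T1, ADIPOR2 and SMARCB1 had the smallest p in the direction of T2, with log2 fold changes of -1.76 and -0.56, and neither was called.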

How the data were processed

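The deposited table holds raw read counts per Ensembl gene for single oocytes sequenced by Smart-seq2. Per the labels, trimming by the authors used Trim Galore (version 0.6.6). Alignment used HISAT2 with the ARS-UCD1.2 assembly, and counting SeqMonk. The annotation release, strand setting and treatment of duplicates are not given in the sources used here. The study's table of differing genes served only to pair 1741 of 1829 identifiers with symbols, and its fold changes and p-values were not used. A spreadsheet had split 9 symbols, which were rejoined.

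The gene lists and the 13 genes were chosen with earlier results of these data known, and NDUFA4 and NDUFA4L2 were moved to the complex IV list after values were seen. CPM were counts per library total, with a pseudocount of 1, a minimum mean of 10 CPM and a log2 difference of 1.5. T3 was compared with T2 by edgeR (version 4.0.16, R 4.3.3) with TMM factors, filterByExpr and Benjamini-Hochberg adjustment. DESeq2 (version 1.42.0) was an alternative. Tables were made in Python 3.11.15. The procedures were tested on simulated data.

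The genes named are the 13 of the score, the 12 with the largest difference in each direction that kept their call under 3 scalings, the 3 most abundant of each list and the 2 with the smallest p in each direction in T3 versus T2. Some genes that this rule names are not reported here. NDUFV1, ATP5F1B, BCS1L, ATP5F1D, PARK7, ATOX1, FTH1, COX19, PSMA2, CENPS, LSM7, LSM8, PSMC4, PSME4, CNOT6, KNTC1, PCM1, CEP170, SMC6, SPC24, KPNA7, NLRP5, NOBOX, RPS3A, RPSA, RPLP0 and RPS12 were named after their values were seen. The titles of the T2 samples say before ovulation, while their other labels say after oestrus detection, which is used.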

Additional observations from a re-analysis of the deposited data

Results flagged for a closer look

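In 129 sets of values over the oocytes of 1 time point, 5 had an oocyte far from the others. Chance gives about 1 in 20, a larger share than this. That rate is nominal, since many of the genes were chosen by the division of the same oocytes. The 5 are listed as a description only. T1.1 had a mean of 4.21 log2(CPM + 1) over the mitochondrial ribosomal protein list, far below the other 5 T1 oocytes. It was also far below them in PSMB4, at 5.04 log2(CPM + 1), and far above them in OOSP2, at 13.92. T1.5 lay far below the other T1 oocytes in XRN1, at 1.51 log2(CPM + 1), and T1.4 in TMEFF1, at 1.45.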

How the results depend on the processing

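The groups stayed the same in every setting of the score that was run, and the difference was 2.69 with TMM, 2.70 with RLE and 2.74 with upper-quartile factors. Genes lower in the high oocytes numbered 650, 651 and 619 with these factors, 535 at a mean of at least 50 CPM, and between 1137 and 1701 with 1 oocyte left out, the higher ones then between 393 and 642. Without the 13 and the 20 most abundant genes in the totals they were 567 higher and 856 lower. With all libraries thinned to the smallest total they were 455 and 1047, so depth moved them little.

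With TMM, RLE and upper-quartile factors, the list medians were 2.45, 2.46 and 2.504 for ATP synthase, 2.63, 2.64 and 2.68 for cytosolic ribosomal proteins, -0.020, -0.010 and 0.029 for the spliceosome, -0.70, -0.69 and -0.65 for the centrosome and spindle (-0.88 without the abundant genes in the totals) and -0.65, -0.63 and -0.59 for ubiquitin genes. Upper-quartile factors gave 3.28 for assembly factors and -0.88 for chromatin. A pseudocount of 5 gave -1.49 for mRNA turnover. With no filter, as with at least 1 CPM, carriers and import had -0.36 and the spliceosome -0.64. At 50 CPM the medians were 2.82 for complex I, 2.27 for carriers, 1.24 for the proteasome, -0.066 for the spliceosome and 0.89 for translation factors. With 1 oocyte left out, the median ran from -0.066 to 1.70 for mitochondrial ribosomal proteins, -1.10 to 0.62 for fatty acid oxidation, -0.70 to 0.19 for the spliceosome, -1.93 to 0.46 for translation factors, -2.30 to -1.47 for mRNA turnover, -1.92 to -1.02 for chromatin, -1.36 to -1.04 for the centrosome and spindle, 2.59 to 3.27 for assembly factors, -0.92 to 0.65 for the proteasome and -0.38 to 0.47 for oocyte genes. The filters change which genes are counted, and otherwise the cause was not tested.

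Between T3 and T2, the likelihood ratio test called 810 genes higher and 794 lower, and DESeq2 (on 13120 genes) 740 and 722. Both called more genes lower at T1 as lower in T3, 117 and 126. With all 9 oocytes, with the replicate block and, in a fit added after seeing the data, with the 5 listed T1 oocytes, the calls were 0 higher and 0 lower, also among the genes apart at T1. The median of the genes higher at T1 was 2.39 with 9 oocytes, and that of the genes lower at T1 was -0.74 with the replicate block. With 1 oocyte left out the calls ran from 245 to 975 higher and 57 to 1226 lower, from 180 to 293 and from 19 to 210 among the genes higher and lower at T1, and the medians from 2.68 to 3.04 and from -0.70 to -0.52. Without T3.2 or T3.4 the lone T3 oocyte is assumed to vary like T2. The cause was not tested. The oocytes share only their replicate numbers, being from different animals, and those of the same number had correlated deviations of 0.0143 and 0.0237 in the 6 oocytes, and of 0.348, 0.124, -0.022 and 0.139 for numbers 1 to 4 in all 9. Since these were not all above 0.1, the numbers were not taken as pairs. Taking the genes apart at T1, and the counts of the gene lists, without T1.4 was also added after seeing the data.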
